A study of Arabidopsis thaliana with 6 samples.

Results

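The UDP-glycosyltransferase genes described here are those whose symbol in the platform annotation is UGT followed by a number. Of 13350 genes with a probe set that names 1 gene, 47 met this rule, each with 1 probe set. The gene table used for names lists 58 protein-coding genes with such a symbol, and all 47 matched it. They fall into 11 of its number families, in which the number after UGT groups enzymes by sequence. RNA came from whole Arabidopsis thaliana seedlings of 2 groups, wild type (Wt, Col-0) and the Salk insertion mutant pif1-2, with 3 Affymetrix ATH1 arrays each. Both groups had the same treatment: 4 days of cold on MS medium, 1 hour of light to start germination, then 4 days of darkness at 21 °C. Each array carried biotin-labelled RNA of 1 sample, made from 20 µg of total RNA. The labels call the replicates biological and say no more about how the seedlings were grown apart.

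PIF1 belongs to the phytochrome-interacting factors, basic helix-loop-helix proteins that restrain light responses in darkness. The labels describe its mRNA as very low in the mutant, of which this is 1 allele. UGT enzymes move a sugar, most often glucose, from a UDP-sugar to a small molecule, and so change its solubility, activity and storage. Their acceptors include plant hormones, flavonoids, lignin precursors, sterols and foreign compounds, and the family is large in plants, with many genes standing in tandem rows. The comparison asks whether the transcripts of this family differ between dark-grown seedlings with and without normal PIF1 activity.

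The groups rest on the sample titles, since other label fields carry an allele number that differs from sample to sample. The series title gives a locus that is not the one the gene table lists for PIF1. The genotype could not be checked by name, since 0 named probe sets belonged to PIF1 or to the locus printed in the series title. The median deposited signal lay between 184 and 199 on the 6 arrays. Replicate 3 of pif1-2 was distant from the other arrays along the first principal component of all probe sets tested, at 47.9 against -13.2 to -5.23 for the others. Of the markers fixed for the tissue, PORB, a protochlorophyllide oxidoreductase of etiolated seedlings, averaged 9261 ± 1268 on the wild-type and 6800 ± 2175 on the pif1-2 arrays (SD, n = 3 each). Its log2 fold change was -0.48 (limma adjusted p = 0.637, unadjusted p = 0.0330), the groups overlapped, and its part in the results was not tested. The root genes AT1G30870, EXPA7 and EXPA18 had 51.7 to 447. The markers fixed for dormant seed, light-exposed seedlings and flowers, PORA, and the root markers COBL9 and RHD6 had no single-gene probe set in the annotation and were not analysed here. The annotation lists no gene for 8730 probe sets, so the array may still carry probes for them.

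No UGT gene passed the threshold between pif1-2 and wild type. The signal is a linear MAS5 intensity scaled to a trimmed mean of 500 per array, and 32 of the 47 genes had a mean of at least 50 over the 6 arrays and were tested. With limma, adjusting by Benjamini-Hochberg over the 17695 probe sets tested, 0 of the 32 genes had an adjusted p under 0.05, where 0.0113% of all probe sets did. The adjusted p-values of the 32 ran from 0.716 to 0.999. At an unadjusted limma p under 0.05, 0 UGT genes were lower and 0 higher, where 4.36% of all probe sets were lower and 3.31% higher, or 7.67% in all. In 0 of the 32 genes did the 3 pif1-2 arrays lie all above or all below the 3 wild-type arrays, where the groups did not overlap for 13.1% of all probe sets (6.58% all below, 6.49% all above). With 1 array left out, the unadjusted count was 2 higher without wild type replicate 1, 1 lower without wild type replicate 3, 1 higher without pif1-2 replicate 2 and 2 lower without pif1-2 replicate 3, and 0 without either of the others. In those same settings 4.40% of all probe sets were higher, 2.72% lower, 2.85% higher and 4.34% lower. RNA came from whole seedlings, so that fewer cells of a type and less RNA per cell cannot be told apart.

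The fold changes were small and ran both ways. A fold change here is the difference pif1-2 minus wild type in log2(signal + 16), so that 1 stands for a 2-fold change of that sum, and it understates the change of dim genes. It was negative for 18 UGT genes and positive for 14, where 49.9% of all probe sets were negative. The median was -0.042, against 0.00095 over all probe sets tested, and the median size without sign was 0.18 against 0.16. In 31 of the 32 genes the fold change was under 1.5-fold in size, as in 94.3% of all probe sets. The exception was UGT72B3 at -0.61 (SE 0.54), the dimmest of the genes tested, with signals of 37.8, 68.7 and 151 in wild type and 63.3, 72.8 and 14.2 in pif1-2. It rested on single arrays, at -0.99 without wild type replicate 1, -0.12 without pif1-2 replicate 3, and -0.18 when replicate 3 of wild type was left out.

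A p that misses the threshold does not show equal levels, and the intervals give what the 6 arrays could leave unseen. All 32 of the 95% intervals held 0. In 27 genes the whole interval lay within 1 of 0 on the log2 scale, and in 7 of these within 0.5: UGT72E2, UGT74D1, UGT76B1, UGT76C2, UGT80B1, UGT87A2 and UGT88A1. For UGT72B3, UGT78D1, UGT85A3, UGT85A4 and UGT85A5 the interval reached beyond 1, so a 2-fold difference was within the error. The median half-width was 0.38 for the 8 genes with a mean signal of at least 500 and 1.02 for the 4 genes with a mean signal under 100.

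**Figure D1:**
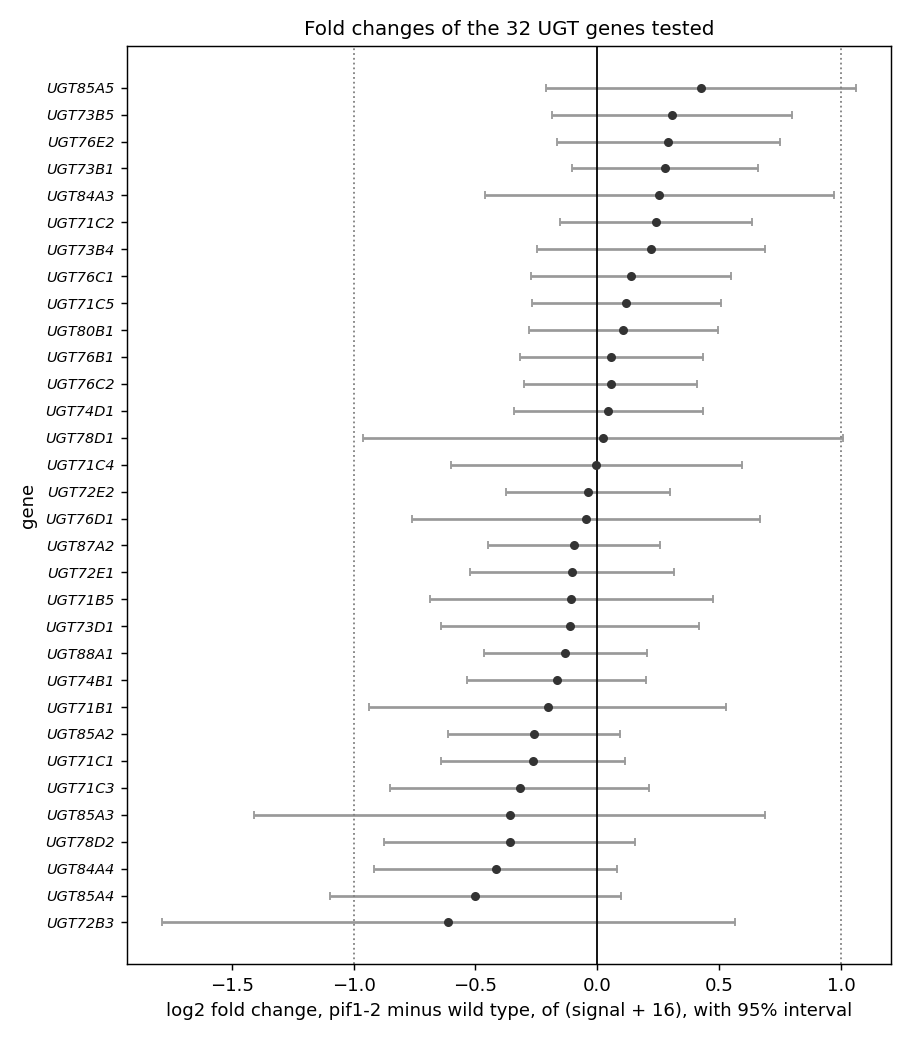
Log2 fold change of (signal + 16), pif1-2 minus wild type, for each of the 32 UGT genes tested, in order of size. Points are limma estimates over 3 arrays a group, bars are 95% intervals and dotted lines mark a 2-fold change of (signal + 16). Every bar crosses 0, and 5 reach past a dotted line.

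Among the UGT genes known to act on hormones, 5 of 16 listed were tested, 5 had a mean signal under 50, and 6 had no single-gene probe set in the annotation. All 5 tested had a fold change above 0 and none passed the threshold, with values from 0.045 to 0.14. UGT76C1, which attaches glucose to a ring nitrogen of cytokinins, had signals of 449, 345 and 361 on the wild-type arrays and 472, 325 and 492 on the pif1-2 arrays. Its lowest value was in pif1-2 replicate 2, below every wild-type array, while the other pif1-2 arrays lay above all 3, and the fold change was 0.14 (SE 0.19, 95% interval -0.27 to 0.55), or 0.32 without pif1-2 replicate 2 and 0.033 without pif1-2 replicate 3. UGT76C2, its neighbour on the chromosome with the same activity, was at 0.055 (SE 0.16), and turned to -0.074 without wild type replicate 2 and to -0.0064 without pif1-2 replicate 1.

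UGT71C5, which glucosylates abscisic acid, had signals of 522, 629.6 and 437 in wild type and 648, 475 and 603 in pif1-2. The groups were interleaved, with a fold change of 0.12 (SE 0.18) that became -0.0068 without wild type replicate 3. UGT74D1, which acts on auxins, had 555, 507 and 524 in wild type and 461, 492 and 715 in pif1-2. The pif1-2 arrays held both the highest value and the 2 lowest, and the fold change of 0.045 (SE 0.18) was -0.15 without pif1-2 replicate 3.

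UGT76B1, which glucosylates isoleucic acid and salicylic acid, had 709, 773 and 755 in wild type and 965, 790.0 and 613 in pif1-2. The wild-type arrays lay close together and the pif1-2 arrays reached beyond them on both sides, with SDs of 32.6 and 176 (n = 3 each) and a fold change of 0.059 (SE 0.17, -0.096 without pif1-2 replicate 1). UGT71B6 and UGT71B8, which act on abscisic acid, UGT74F1, which acts on salicylic acid, UGT76E1, which acts on a hydroxylated jasmonate, and UGT84B1, which acts on indole-3-acetic acid, were the 5 under the limit.

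Of the UGT genes for phenylpropanoids, the precursors of lignin and sinapate esters, 4 of 8 were tested. UGT84A4, which makes glucose esters of hydroxycinnamic acids, had signals of 168, 185 and 199.7 in wild type and 134, 99.0 and 179 in pif1-2. On 2 of the pif1-2 arrays it was below all wild-type arrays, and on replicate 3 it was within their range. The fold change was -0.42 (SE 0.23, 95% interval -0.92 to 0.083, limma adjusted p = 0.717), with -0.61 without pif1-2 replicate 3 and -0.23 without pif1-2 replicate 2. Its neighbour UGT84A3, with the same kind of activity, had 82.3, 98.5 and 131 in wild type and 111, 214 and 80.2 in pif1-2. Here 1 array, pif1-2 replicate 2, was highest, and the fold change of 0.25 (SE 0.33) was -0.099 without it and 0.53 without pif1-2 replicate 3.

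UGT72E1 and UGT72E2 glucosylate monolignols and their aldehydes. UGT72E1 had signals of 1146, 965 and 838 in wild type and 1169.8, 899 and 706 in pif1-2. In each group the array of replicate 1 was the brightest and that of replicate 3 the dimmest, and the fold change was -0.10 (SE 0.19, 0.072 without pif1-2 replicate 3). UGT72E2 averaged 415 ± 19.8 on the wild-type and 406 ± 54.0 on the pif1-2 arrays (SD, n = 3 each), with a fold change of -0.038 (SE 0.15). UGT72E3, the third gene of this subgroup, had a mean signal of 11.2 and no array above 13.8, and UGT84A1 was also under the limit.

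Flavonoid glycosylation was represented by UGT78D1 and UGT78D2, 2 of 9 listed genes. UGT78D2, which puts glucose on position 3 of flavonols and anthocyanidins, had signals of 171, 119.7 and 159.9 in wild type and 137, 95.6 and 108 in pif1-2. The pif1-2 array of replicate 1 lay among the wild-type arrays and the other pif1-2 arrays below them, with a fold change of -0.36 (SE 0.24, 95% interval -0.88 to 0.16, limma adjusted p = 0.771). It stayed negative in all 17 other settings tried. Among these, the changes of filter and variance model and the replicate block cannot alter a fold change. UGT78D1, which puts rhamnose at the same position, had 74.0, 74.2 and 58.8 in wild type and 26.5, 139 and 81.3 in pif1-2. The pif1-2 arrays held both the lowest and the highest value, and the fold change of 0.026 (SE 0.45) was 0.54 without pif1-2 replicate 1 and -0.40 without pif1-2 replicate 2. UGT78D3, an arabinosyltransferase of flavonols close to UGT78D2 on the chromosome, had a mean signal of 32.3.

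UGT74B1, which glucosylates thiohydroximates in glucosinolate synthesis, had signals of 379.6, 403 and 319.7 in wild type and 325, 280.0 and 375 in pif1-2. The groups overlapped, with a fold change of -0.17 (SE 0.17, -0.27 without pif1-2 replicate 3 and -0.065 without pif1-2 replicate 2). UGT80B1, a sterol glucosyltransferase, had 271, 302 and 368 in wild type and 293, 397 and 326 in pif1-2, also overlapping, at 0.11 (SE 0.18, -0.0080 without pif1-2 replicate 2). UGT73B5, a gene of the pathogen response, had 148, 129 and 129 in wild type and 170.0, 130.3 and 222 in pif1-2. Its pif1-2 arrays of replicates 1 and 3 were above all wild-type arrays, and the fold change was 0.31 (SE 0.23, with 0.13 without pif1-2 replicate 3 and 0.48 without pif1-2 replicate 2). UGT76D1, which acts on dihydroxybenzoic acids, had 66.3, 186 and 123 in wild type and 110.3, 139.9 and 90.1 in pif1-2. The wild-type arrays spanned all the pif1-2 arrays, and the fold change was -0.047 (SE 0.33).

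**Figure D2:**
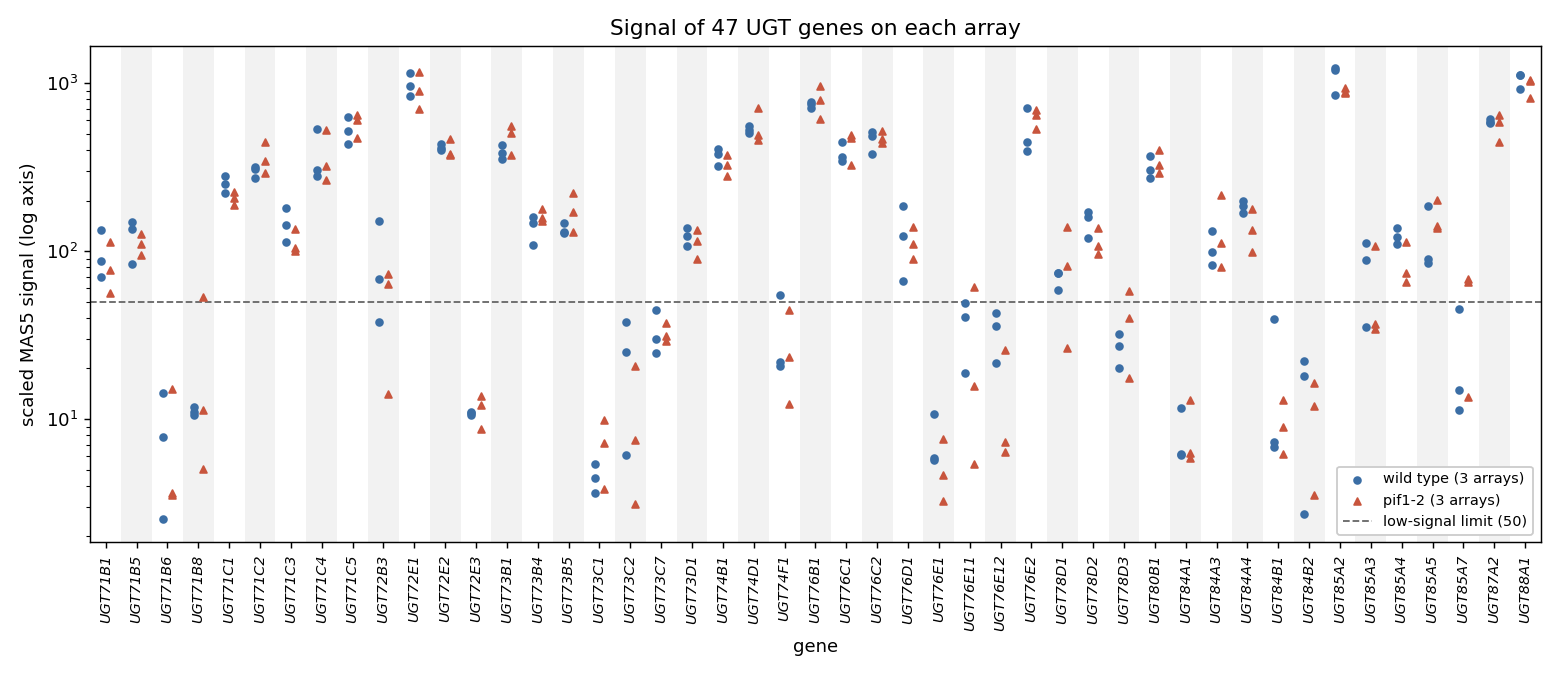
Scaled MAS5 signal (log axis) of the 47 UGT genes on each of 6 arrays, with 1 point per array, circles for wild type and triangles for pif1-2. The dashed line marks the limit of 50 on the mean signal, and in the genes above it the symbols of both groups overlap. Heights of different genes come from different probes and are not amounts of RNA that can be compared.

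The 8 genes with a mean signal of at least 500 had a median interval half-width of 0.38, against 0.46 over all UGT genes tested. Not each of them had a narrower interval than every dimmer gene. UGT76E2, one of the 8, had a 95% interval of -0.17 to 0.75, and UGT72E2, with a mean signal of 410, one of -0.37 to 0.30. UGT88A1 had signals of 1116, 926 and 1124 in wild type and 1029, 1045 and 819 in pif1-2, with a fold change of -0.13 (SE 0.15, 95% interval -0.47 to 0.20), from -0.22 without wild type replicate 2 to -0.020 without pif1-2 replicate 3. UGT85A2 had 1223, 1199 and 853 in wild type and 886, 879 and 933 in pif1-2. For it the wild-type array of replicate 3 was below all pif1-2 arrays, while the other wild-type arrays were above all of them. Its fold change was -0.26 (SE 0.16, 95% interval -0.61 to 0.095), at -0.17 when wild type replicate 1 was left out and -0.42 without wild type replicate 3 (limma adjusted p = 0.963, unadjusted p = 0.0230).

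UGT87A2, known for an effect on flowering time, had 579, 609 and 590.0 in wild type and 586, 449 and 645 in pif1-2. The wild-type values lay within a narrow band, and the fold change was -0.095 (SE 0.16, 0.051 without pif1-2 replicate 2). UGT76E2 had 713, 396 and 447 in wild type and 645, 532 and 689 in pif1-2. The wild-type array of replicate 1 was the highest of all 6 and the other wild-type arrays the lowest. The fold change was 0.29 (SE 0.21), at 0.13 when wild type replicate 2 was left out and 0.54 without wild type replicate 1 (limma adjusted p = 0.372, unadjusted p = 0.0107). The 4 others at this signal were UGT72E1, UGT76B1, UGT71C5 and UGT74D1.

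The number families were mixed in direction, and no gene of any family passed. Of the 7 genes tested in family 71, 5 had negative and 2 positive fold changes, between -0.32 and 0.24. UGT71C3, which acts on methyl salicylate, was at the lower end (SE 0.24) and UGT71C2 at the upper end (SE 0.18), with UGT71C1 at -0.26 (SE 0.17), UGT71B1 at -0.20 (SE 0.34) and UGT71B5 at -0.11 (SE 0.27). In family 73 the fold changes of 3 genes were positive and of 1 negative. UGT73B4, which acts on xenobiotics, was at 0.22 (SE 0.21), UGT73B1 at 0.28 (SE 0.18) and UGT73D1 at -0.11 (SE 0.24). The value of UGT73B1 was 0.16 without pif1-2 replicate 1, and without pif1-2 replicate 2 it was 0.44 (limma adjusted p = 0.644, unadjusted p = 0.0265). In family 76, 4 of 5 were positive, from -0.047 to 0.29. The 3 genes of family 72 were all negative, from -0.61 to -0.038, but UGT72E1 and UGT72E2 changed sign when single arrays were left out.

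Family 85 held the widest range of fold changes, and the members named here were picked after their values were seen. UGT85A4 had the smallest p of the 32 genes, with signals of 122, 137 and 111 in wild type and 74.4, 65.1 and 113 in pif1-2. On replicate 3 the pif1-2 value lay within the wild-type range and on the other pif1-2 arrays it was below, for a fold change of -0.50 (SE 0.27, limma adjusted p = 0.716, unadjusted p = 0.0933). It was -0.36 without pif1-2 replicate 2 and -0.70 without pif1-2 replicate 3 (limma adjusted p = 0.663 for the latter). UGT85A5 had 185, 85.5 and 90.2 in wild type and 202, 140.4 and 138 in pif1-2. The arrays of replicate 1 were the highest in both groups, and the fold change was 0.43 (SE 0.29), at 0.25 when wild type replicate 2 was left out and 0.74 without wild type replicate 1 (limma adjusted p = 0.433). UGT85A3 was at -0.36 (SE 0.48) with single arrays from 34.4 to 111, and moved from -0.78 without pif1-2 replicate 1 to -0.095 without wild type replicate 3. The difference between these genes was not tested.

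Of the 47 genes, 30 stood in 13 runs of neighbours, counted as loci with at most 1 locus number between them. Some runs held genes of both signs: UGT71C5 at 0.12, UGT71C4 at -0.0031 and UGT71C3 at -0.32 lie side by side. So do UGT71C2 at 0.24 and UGT71C1 at -0.26, UGT84A3 at 0.25 and UGT84A4 at -0.42, and UGT85A2, UGT85A5 and UGT85A3. The value of UGT71C4 was near 0 against its SE of 0.27, and its sign turned in 6 other settings. In 2 runs with both genes tested the signs were alike, UGT73B5 with UGT73B4 and UGT76C2 with UGT76C1, all positive. Neighbouring genes can be alike in sequence, and binding of one gene's RNA to the other's probes was not tested.

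The arrays of a group differed among themselves. UGT71C4 had signals of 531, 279 and 302 in wild type and 526, 321 and 264 in pif1-2. The arrays of replicate 1 were alike and far above the other 4 in both groups, and the fold change was -0.0031 (SE 0.27). Both replicate 1 arrays were above the other 4 for 3 of the 32 UGT genes, UGT71C4, UGT72E1 and UGT85A5, and for 10.2% of all probe sets tested. Both were below the other 4 for UGT71B5, UGT73D1 and UGT80B1, against 9.80% of all probe sets. Taking each gene against its wild-type mean, the median UGT value was -0.023, -0.10 and -0.0015 on the pif1-2 arrays of replicates 1, 2 and 3, and -0.0022, 0.011 and -0.0092 on the wild-type arrays. Over all probe sets tested the same measure was 0.028, 0.028 and -0.023 on the pif1-2 arrays. The wild-type arrays lie near 0 by this measure because their own mean is the reference. For the UGT genes pif1-2 replicate 2 was the lowest of the 6 arrays, and without it the median fold change was -0.082. The UGT median of pif1-2 replicate 3, the array distant on the first component, lay within the range of the wild-type arrays. Its single genes varied more, as 9 of the 32 were lowest and 5 highest on that array.

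**Figure D3:**
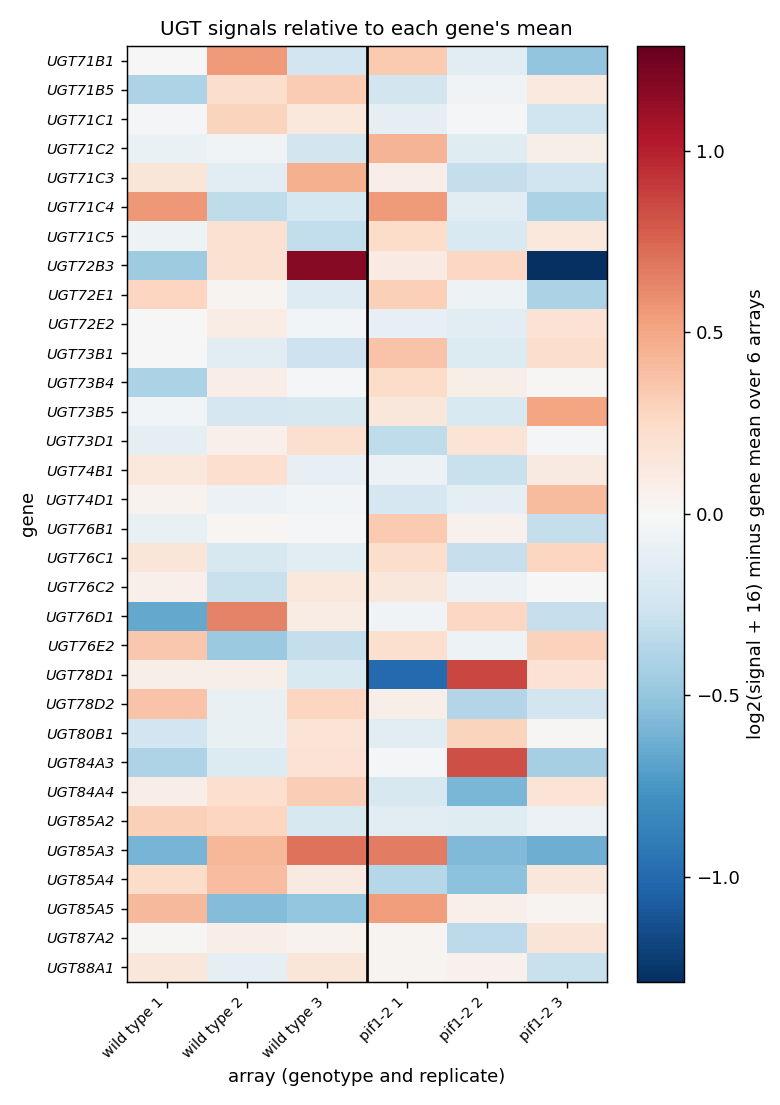
Log2(signal + 16) of the 32 UGT genes tested (rows) on each array (columns, wild type left of the line and pif1-2 right), relative to each gene's mean over the 6 arrays. Red is above and blue below that mean, and no row is of one colour on the left and of the other on the right. The deepest colours are in UGT72B3, UGT78D1 and UGT84A3.

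The 15 genes under the limit of 50 had mean signals from 5.72 to 36.5. They were UGT71B6, UGT71B8, UGT72E3, UGT73C1, UGT73C2, UGT73C7, UGT74F1, UGT76E1, UGT76E11, UGT76E12, UGT78D3, UGT84A1, UGT84B1, UGT84B2 and UGT85A7. No array of UGT71B6, UGT72E3, UGT73C1, UGT76E1 or UGT84A1 reached 20, and 5 other genes reached 50 on at least 1 array. UGT85A7, the highest of the 15, had 14.9, 11.3 and 45.4 in wild type and 68.4, 13.5 and 65.6 in pif1-2, and UGT71B8 reached 53.6 on pif1-2 replicate 3 but was at 5.06 to 11.8 on the other arrays. Just above the limit were UGT72B3 and UGT85A3, at 67.9 and 68.9, and just below it UGT85A7 and UGT73C7, at 36.5 and 32.8. Detection calls were not used here, so a low signal is not shown to be absence of the transcript. With no limit on the signal, UGT76E12 had a fold change of -0.80 (limma adjusted p = 0.703, unadjusted p = 0.0386), on signals of 42.9, 35.6 and 21.7 in wild type and 7.29, 25.7 and 6.38 in pif1-2.

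Genes that supply or oppose these enzymes gave few tested members, and 0 passed the limma threshold over all probe sets. The beta-glucosidases, enzymes that can remove the sugar again, had 12 of 20 genes tested, with 4 negative and a median of 0.12. At an unadjusted p under 0.05, 1 was higher and 0 lower, where 3.31% of all probe sets were higher and 4.36% lower. The 1 was BGLU45, a beta-glucosidase of monolignol glucosides, whose mean signals were 78.0 ± 20.2 for wild type and 139 ± 25.7 for pif1-2 (SD, n = 3 arrays). Its fold change was 0.73 (SE 0.27, limma adjusted p = 0.602). BGLU41 was next, at 0.74 (SE 0.40). For both, all 3 pif1-2 arrays lay above all wild-type arrays, as for 6.49% of all probe sets.

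Glutathione S-transferases of the tau and phi classes, which act beside UGT enzymes on foreign compounds, had 9 of 12 tested, with a median of 0.014, 4 negative, and 0 at an unadjusted p under 0.05. GSTU16 was at 0.35 (SE 0.16), with all 3 pif1-2 arrays above all wild-type arrays, as for 6.49% of all probe sets. GSTU20 was at -0.37 (SE 0.23), and its groups overlapped. Flavonoid synthesis was measured by DFR alone, 1 of 14 genes, at 0.36 (SE 0.22), and phenylpropanoid synthesis by 2 of 19, the acyltransferase HCT at -0.036 (SE 0.13) and the aldehyde dehydrogenase ALDH2C4 at 0.042 (SE 0.12). USP, which makes UDP-sugars, was the 1 gene of 28 for sugar supply, at -0.016 (SE 0.17). The lists for cytokinin (26 genes), abscisic acid (14), glucosinolates (16) and salicylic acid (9) had 0 genes tested and were not analysed here.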

How the data were processed

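The authors deposited 1 linear intensity for each probe set and array, made with MAS5 per the submitters' processing notes (version not given in the sources used here). Arrays had been brought to a common scale, as the 2% trimmed mean of the deposited intensity was 500 on each. Of 22810 probe sets, 64 Affymetrix controls were left out. The rest were rescaled to that same trimmed mean per array, 5051 probe sets with a mean under 50 were left out, and log2(signal + 16) of the other 17695 went into limma 3.58.1, run in R 4.3.3 (lmFit, eBayes with trend, two-sided, Benjamini-Hochberg over all probe sets tested). The fit was tested on simulated data.

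Gene names came from the platform annotation: 13513 had 1 gene, 503 several, and 8730 were not listed. The RefSeq table of TAIR10.1 served for names and neighbours only, and no coordinates or sequences are printed. Members, lists and tests were chosen with earlier results of these data known. Every tested UGT gene is named. Values on every array are given for the 8 brightest genes and for the 2 of smallest p in each role group. Partner lists show the 2 of smallest p. A gene outside this rule was picked after its values were seen: UGT72B3, UGT71C4, UGT85A4, UGT85A5, UGT85A3, UGT85A7, UGT71B8 and UGT76E12. The number of arrays limits the precision, and p-values rest on the spread among these arrays alone, moderated over all probe sets tested. The labels call the replicates biological but do not say how the seedlings were grown apart. How much of the spread is technical therefore cannot be told. Alternatives covered pseudocount, scaling, filter, variance model, array weights, replicate block and leaving out each array.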

Additional observations from a re-analysis of the deposited data

How the results depend on the processing

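No UGT gene passed the limma threshold in any of the 17 other settings (smallest adjusted p = 0.372). At an unadjusted p under 0.05, the number lower was 1 with no filter (3.72% of all probe sets), 1 with no intensity trend (3.69%), and 2 with array weights (5.81%), which also gave 1 higher (4.40%); leaving out 1 array gave 0 to 2 lower and 0 to 2 higher. The replicate block gave 0 in both directions; it moved the calls over all probe sets from 2 to 45 and no UGT call. The labels do not say whether same-numbered arrays share a batch, and this was not tested. Deviations from the group means correlated at 0.25, 0.099 and 0.088 for same-numbered arrays, against -0.16 to 0.054 for other pairs. Groups did not overlap for 1 lower gene with quantile normalization. Leaving out 1 array gave 1 to 4 lower and 0 to 4 higher genes without overlap, where fewer arrays separate more easily. The share of all probe sets without overlap was not counted in these settings, so these counts cannot be set against a background. The median fold change was -0.042 with the block, which cannot alter a fold change here, and -0.082 to -0.011 without 1 array. With one probe set per gene, the choice of probe set gave no alternative.

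The fold change kept its sign in every setting for 17 genes, 10 lower and 7 higher, and turned for 15, and the cause was not tested. Changes of the filter or the variance model and the replicate block leave each fold change as it is, so these settings could not turn a sign. With array weights it was 0.25 for UGT71C4, 0.018 for UGT72E1, -0.014 for UGT74D1 and -0.15 for UGT78D1. UGT71C4 was 0.018 with median centring and 0.023 with quantile normalization, and UGT78D1 was -0.030 with a pseudocount of 1. Without 1 array the fold changes ranged from -0.42 to 0.022 for UGT71B1, -0.33 to 0.033 for UGT71B5, -0.28 to 0.28 for UGT71C4, -0.0068 to 0.25 for UGT71C5, -0.29 to 0.072 for UGT72E1, -0.14 to 0.021 for UGT72E2, -0.23 to 0.022 for UGT73D1, -0.15 to 0.16 for UGT74D1, -0.096 to 0.22 for UGT76B1, -0.074 to 0.14 for UGT76C2, -0.39 to 0.26 for UGT76D1, -0.40 to 0.54 for UGT78D1, -0.0080 to 0.22 for UGT80B1, -0.099 to 0.53 for UGT84A3 and -0.20 to 0.051 for UGT87A2.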

Other observations

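Further UGT genes are measured by 3 probe sets that the annotation gives to 2 genes each, and these entered none of the counts above. The probe set shared by UGT73B2 and UGT73B3, neighbours of UGT73B1, had signals of 2201, 1617 and 1837 in wild type and 2138, 1775 and 2958 in pif1-2, and stood at 0.26 on the log2 fold change scale used above (SE 0.19, limma adjusted p = 0.805). UGT89B1, a flavonol glucosyltransferase that shares its probe set with AT1G73885, had 640.1, 598 and 522 in wild type and 788, 727 and 625 in pif1-2, at 0.27 (SE 0.15, limma adjusted p = 0.721). The highest wild-type array lay above the lowest pif1-2 array. The probe set of UGT71D1 and AT2G29710 had 243, 291 and 287 in wild type and 294, 185 and 296 in pif1-2, at -0.10 (SE 0.20). Which gene of each pair gave the signal cannot be told apart.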
